A study of Caenorhabditis elegans with 12 samples.

Results

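The 10 genes described here encode histone methyltransferases and chromatin-binding proteins known for their work in the Caenorhabditis elegans germ line. They are mes-2, mes-3, mes-6, mes-4, met-1, mrg-1, met-2, set-25, hpl-2 and set-2, taken by symbol from 24619 genes with a row in any of 5 deposited tables. All 10 were listed in all 5 tables and passed the filter on low values in each comparison. Poly-A selected RNA from whole young adult worms was sequenced in 4 groups of 3 libraries. The groups were adr-2(-) animals on sqd-1 RNAi, wild-type animals on sqd-1 RNAi, adr-2(-) animals on control RNAi and wild-type animals on control RNAi. The adr-2(-) animals were strain BB20 with the adr-2(ok735) allele, and the wild-type animals were strain N2, so each genotype is represented by 1 strain. Animals were hatched on bacteria carrying RNAi against sqd-1, or the empty vector as control. The labels give 2 growth times for the same animals, 72 h in one place and 60 h in another. ADR-2 is the enzyme that converts adenosine to inosine in worm RNA, and SQD-1 is an RNA-binding protein of the hnRNP class. The labels do not say that replicates were separate cultures, so p-values measure the spread between these libraries, which may be technical.

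Chromatin regulators of this kind place, or bind to, methyl groups on the tail of histone H3, and different positions have different effects. In worm germ cells the complex of MES-2, MES-3 and MES-6 methylates H3K27, a mark of silenced chromatin. MES-4 and MET-1 methylate H3K36 on genes that germ cells transcribe, and MRG-1 belongs to a family that binds this mark. MET-2, SET-25 and HPL-2 act on H3K9 methylation, a mark of heterochromatin and repeats, and SET-2 methylates H3K4 at promoters. The mes genes were named for maternal-effect sterility: the offspring of mutant mothers lack a working germ line.

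The libraries held 29042770 to 33984832 reads, of which 29% to 57.8% came from ribosomal RNA genes, and the 10 genes had between 179 and 6256 reads in a library. Values are the authors' normalized reads, in which counts were scaled by each library's size factor. The targeted transcript sqd-1 had 1106 to 1863 normalized reads in adr-2(-) and 1302 to 1342 in wild-type on sqd-1 RNAi, against 11472 to 29363 in adr-2(-) and 11948 to 15266 in wild-type on control RNAi. In adr-2(-) libraries adr-2 had 0 to 4 reads. In wild-type it had 331 to 533 reads on sqd-1 RNAi and 794 to 956 on control RNAi. Markers of germ cells, oocytes, sperm, muscle, intestine and neurons were all present in whole worms, and none was at 0 in all 3 libraries of a group. Libraries of 1 adr-2(-) group differed more among themselves than those of 1 wild-type group, with chi-square values per degree of freedom over genes of 160 to 481 between adr-2(-) libraries and 21.6 to 70.8 between wild-type libraries. Ribosomal RNA reads were not set apart in these values. Their share was 55.9% and 29.0% in the adr-2(-) control pair at 481, and 36.6% and 34.7% in the adr-2(-) sqd-1 RNAi pair at 272. The part of ribosomal RNA in the values was not tested. The deviations of the 10 genes were widest in the adr-2(-) libraries of replicate 2, and their counts called or separate are given with and without these libraries.

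The levels of the 10 genes differed several-fold from one gene to another when read per kilobase of exon. On this scale, with all 12 libraries brought to common size factors, mrg-1 was highest in wild-type control animals at 1414 ± 181.9 normalized reads per kilobase (SD, n = 3). Next came hpl-2 at 755 ± 47.9, and its range overlapped that of met-2 at 618 ± 87.4. The genes met-1 (563 ± 93.2) and mes-4 (561 ± 100.9) followed, and neighbours from hpl-2 to mes-4 did not differ beyond their spread. A lower set held mes-3 (437 ± 30.3), mes-2 (403 ± 44.6), set-2 (389.7 ± 54.1) and mes-6 (382 ± 59.3), with overlapping ranges from each to the next. The lowest was set-25 at 216 ± 37.5, below every library of mes-6. Against 18006 protein-coding genes with any reads in this group, the 10 genes lay between the percentiles 65.2 (set-25) and 93.4 (mrg-1) of the level per kilobase.

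The same per-kilobase order was taken in the other groups. In adr-2(-) animals on sqd-1 RNAi, mrg-1 was again highest at 1265 ± 615 and set-25 lowest at 134 ± 22.04 normalized reads per kilobase (SD, n = 3). Neighbours from hpl-2 down to mes-6 overlapped in that group. In wild-type animals on sqd-1 RNAi, mrg-1 was at 561 ± 67.2 and set-25 at 61.4 ± 7.43. There set-2 had rank 2 at 338 ± 63.0, and its range overlapped that of hpl-2 at 305 ± 33.1. The level of set-2 in wild-type control animals was 389.7 ± 54.1. In adr-2(-) animals on control RNAi, mrg-1 was at 2365 ± 1190, without overlap with hpl-2. The lowest there was set-25 at 267 ± 49.1, and neighbours from hpl-2 down to set-25 overlapped.

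**Figure D1:**
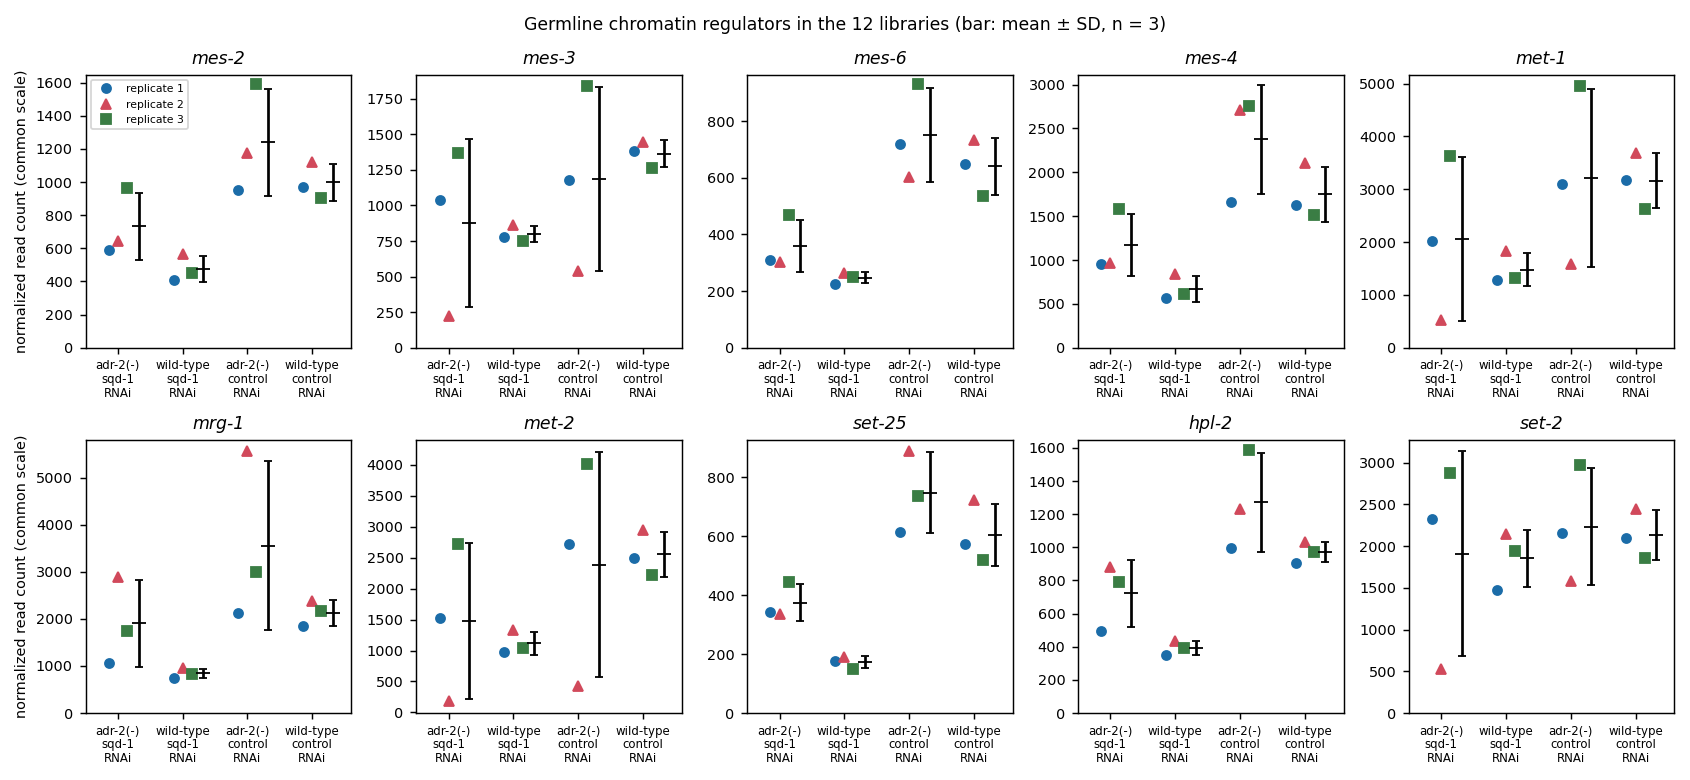
Normalized read counts of the 10 genes in the 12 libraries, on common size factors, with 1 panel per gene, groups on the x axis, replicate numbers as coloured shapes and bars for the mean ± SD (n = 3). The wild-type sqd-1 RNAi libraries lie below the wild-type control libraries in 9 of the 10 panels, and adr-2(-) replicate 2 is low for met-2, mes-3, met-1 and set-2 and high for mrg-1.

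The first comparison asked what sqd-1 RNAi does to these transcripts in wild-type animals. The H3K27, H3K36 and H3K9 genes fell together, 9 of the 10, to between 27.7% (set-25) and 56.9% (mes-3) of the control mean, while the H3K4 methyltransferase gene set-2 did not pass the test. Calls rest on limma over all genes of the table, with a Benjamini-Hochberg adjusted p under 0.05. Among all 14489 genes tested, 33.8% were called lower and 61.1% were called in either direction. The median log2 difference of the 10 genes was -1.29, against 0.04 for all genes tested. Log2 differences are on the log2(value + 1) scale, sqd-1 RNAi minus control RNAi.

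The 3 subunits of the H3K27 methyltransferase complex were all lower. The catalytic subunit gene mes-2 (WBGene00003220, chromosome II, 14383973 to 14388454, plus strand, WBcel235) had 434.5, 603 and 476 normalized reads on sqd-1 RNAi, against 1025, 1233 and 994 on control RNAi. Its groups did not overlap, and the log2 difference was -1.11 ± 0.174 (SE), adjusted p 0.000109. The gene mes-6 (WBGene00003224, chromosome IV, 8511284 to 8513469, plus strand), which encodes the WD-repeat subunit related to EED, had 239, 283 and 262 normalized reads on sqd-1 RNAi, against 686, 807 and 588 on control RNAi. All 3 sqd-1 RNAi libraries were again below all 3 controls, with a log2 difference of -1.40 ± 0.173 (SE), adjusted p 1.82e-05. The gene mes-3 (WBGene00003221, chromosome I, 4996835 to 5003202, plus strand), whose product is a subunit without a clear relative outside nematodes, had 825, 918 and 785 normalized reads on sqd-1 RNAi, against 1461, 1595 and 1386 on control RNAi. Its groups were also apart, by a smaller log2 difference of -0.81 ± 0.151 (SE), adjusted p 0.000413. In mes-6, 380 exonic bases are shared with C09G4.4 on the same strand, whose reads came to 43.8% of those of mes-6, and C09G4.4 had a log2 difference of -1.50 ± 0.188 (SE). How the authors assigned reads of the shared bases is not given in the sources used here, so the value of mes-6 is uncertain to that extent.

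The 3 genes that write or bind H3K36 methylation were lower too. The gene mes-4 (WBGene00003222, chromosome V, 13433050 to 13437545, minus strand), which encodes an NSD-type methyltransferase that keeps the mark on germline genes, had 597, 897 and 641 normalized reads on sqd-1 RNAi, against 1718, 2319.9 and 1665 on control RNAi. The groups did not overlap, and the log2 difference was -1.42 ± 0.193 (SE), adjusted p 3.59e-05. The gene met-1 (WBGene00016603, chromosome I, 4254197 to 4264699, plus strand), which encodes the methyltransferase related to yeast Set2, had 1351, 1954 and 1376 normalized reads on sqd-1 RNAi, against 3363, 4048 and 2890.4 on control RNAi. Every sqd-1 RNAi library was below every control, and the log2 difference was -1.15 ± 0.186 (SE), adjusted p 0.000145. The chromodomain protein gene mrg-1 (WBGene00003406, chromosome III, 12871029 to 12874656, minus strand) had 788, 1011 and 875 normalized reads on sqd-1 RNAi, against 1944, 2624 and 2373 on control RNAi. Its groups lay apart by more than the spread within either, with a log2 difference of -1.37 ± 0.168 (SE), adjusted p 1.70e-05.

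Among the H3K9 genes, set-25 had the largest decrease of the 10. This gene (WBGene00012802, chromosome III, 13283824 to 13293090, minus strand), which encodes the methyltransferase that adds the last methyl group at H3K9, had 187, 202 and 156 normalized reads on sqd-1 RNAi, against 606, 794 and 569 on control RNAi. The mean was 181.7 ± 23.5 on sqd-1 RNAi and 656 ± 121 on control RNAi (SD, n = 3), a level of 27.7% of control, with a log2 difference of -1.84 ± 0.185 (SE) and an adjusted p of 4.96e-06. Of its exonic bases, 64 are shared with unc-64 on the opposite strand. That partner had 88.7% as many reads and a log2 difference of 0.40 ± 0.162 (SE), opposite in sign, and without strand the reads of the shared bases cannot be told apart. The gene met-2 (WBGene00019883, chromosome III, 8375300 to 8380848, plus strand), which encodes the SETDB1-type methyltransferase that adds the first methyl groups, had 1025, 1418 and 1098 normalized reads on sqd-1 RNAi, against 2641, 3234 and 2442 on control RNAi. No library crossed between groups, and the log2 difference was -1.24 ± 0.174 (SE), adjusted p 4.82e-05. The heterochromatin protein gene hpl-2 (WBGene00001996, chromosome III, 10752195 to 10755530, minus strand), a relative of HP1 that binds methylated H3K9, had 371, 465 and 408 normalized reads on sqd-1 RNAi, against 959, 1134 and 1069.9 on control RNAi. Its groups were apart as well, with a log2 difference of -1.35 ± 0.161 (SE), adjusted p 1.44e-05.

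The gene set-2 (WBGene00004782, chromosome III, 4922427 to 4930204, minus strand), which encodes the catalytic subunit of the SET1-type H3K4 methyltransferase complex, was the exception. It had 1553, 2283.5 and 2030.2 normalized reads on sqd-1 RNAi, against 2217.5, 2691 and 2038 on control RNAi. Replicate 2 on sqd-1 RNAi was above control replicates 1 and 3, so the groups overlapped, while replicate 1 was below all 3 controls. The log2 difference was -0.25 ± 0.179 (SE) with a 95% interval of -0.64 to 0.13 and an adjusted p of 0.236. That interval includes no difference and overlaps the interval of mes-3, -1.14 to -0.49, the smallest of the 9 decreases.

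The 9 genes with separate groups compare with 36.4% of all genes tested whose sqd-1 RNAi libraries all lay below the controls. The same 9 genes were called with the replicate block, by DESeq2 and by edgeR, against 36.1%, 27.1% and 28.8% of all genes lower. The exception was 1 planned setting: in 1 fit of all 12 libraries 6 were called, against 21.6% of all genes lower, and mes-3, met-1 and met-2 did not pass. In limma 3957 genes were higher and 4892 lower over the whole table, while edgeR on recovered whole reads gave 5215 higher and 4169 lower. TMM and upper-quartile scaling raised the median of all genes by 0.14 and 0.16 and edgeR raised it by 0.20 on the log2 scale, and all 10 genes stayed below 0 in each.

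Germ line and sperm markers moved in the same libraries. Of 16 germ cell markers tested, 13 were lower and 0 higher, with a median log2 difference of -1.09. All 14 oocyte markers were lower, with a median of -2.86, and all 17 sperm markers were higher, with a median of 1.97. Among all genes tested, 33.8% were called lower and 27.3% higher. The summed level of 17 germ cell markers ranged from 22158 to 29715 normalized reads on sqd-1 RNAi and from 52875 to 67204 on control RNAi. The summed oocyte level ranged from 12243 to 32738 on sqd-1 RNAi and from 127783 to 177484 on control RNAi, and the summed sperm level from 15344 to 19125 on sqd-1 RNAi and from 4741 to 5919 on control RNAi. In RNA from whole animals, fewer germ cells and less RNA per germ cell cannot be told apart. The part of the germ cell, oocyte and sperm markers in the lower levels of the 9 genes was not tested.

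**Figure D2:**
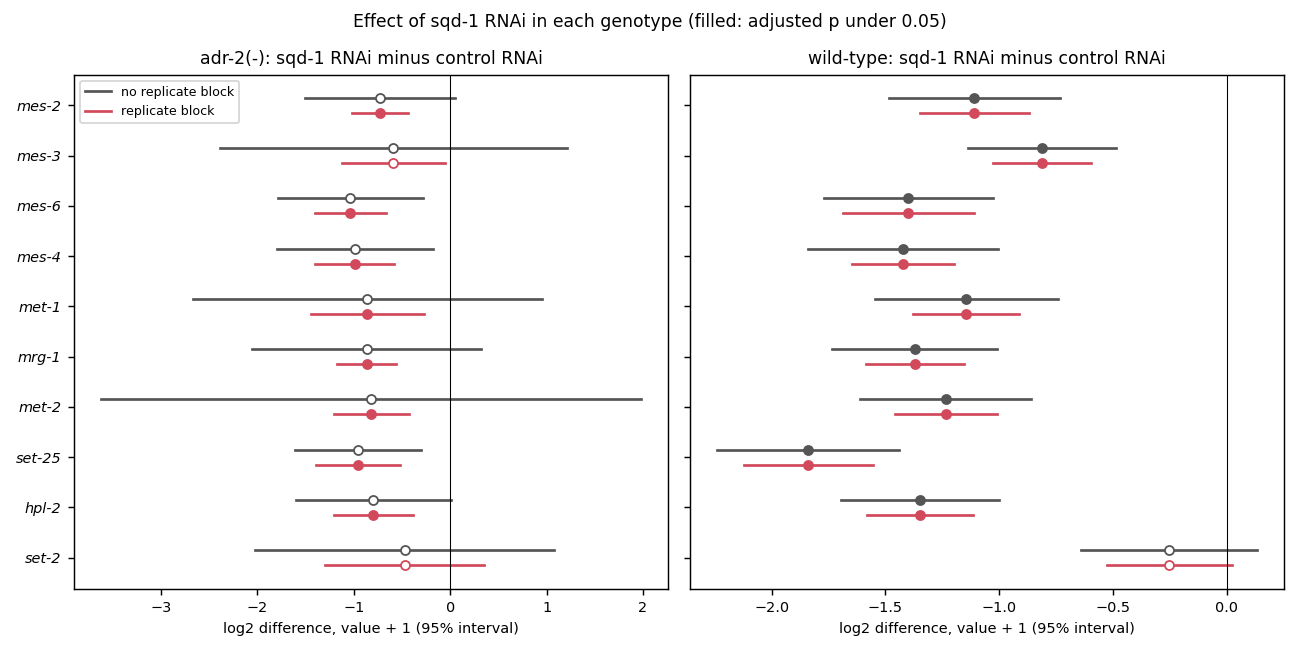
Log2 difference of each gene, sqd-1 RNAi minus control RNAi, in adr-2(-) (left) and wild-type (right), with 95% intervals from limma without and with the replicate number as a block. Filled points have an adjusted p under 0.05: 9 genes in wild-type by either fit, and in adr-2(-) 0 genes without the block and 8 with it.

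In adr-2(-) animals all 10 genes had lower means on sqd-1 RNAi, but the spread between libraries was large. Without a replicate block limma called 0 of the 10, against 0% of 14068 genes lower and 0.0284% in either direction. At an unadjusted p under 0.05 limma passed 3 of the 10, against 21.2% of all genes. On recovered whole reads edgeR and DESeq2 each called 0, against 0% and 0.56% of all genes lower. The labels do not say what a replicate number stands for. Same-numbered libraries were taken as pairs within a genotype from correlations in these same data. With that pairing as a block 8 of the 10 were called lower, against 28.5% of all genes. The 2 that did not pass were mes-3 and set-2. The median log2 difference was -0.84, against -0.03 for all genes tested.

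Among the H3K27 genes in adr-2(-), mes-2 had 555, 645 and 980.2 normalized reads on sqd-1 RNAi, against 943, 1119 and 1508 on control RNAi. Its groups overlapped through the high replicate 3 on sqd-1 RNAi, although each pair was lower. The log2 difference was -0.73, with an adjusted p of 0.252 without the block and 0.00846 with it. The gene mes-6 had 290.5, 302 and 475 normalized reads on sqd-1 RNAi, against 713, 572 and 881 on control RNAi, with no overlap. Its log2 difference was -1.03, adjusted p 0.154 without and 0.00784 with the block. For mes-3 the values were 978, 225 and 1391.5 normalized reads on sqd-1 RNAi, against 1169, 513 and 1744.5 on control RNAi. Replicate 2 was far below replicates 1 and 3 in both groups, and the log2 difference of -0.59 had an adjusted p of 0.0704 with the block.

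Among the H3K36 genes in adr-2(-), mes-4 had 902, 971 and 1605 normalized reads on sqd-1 RNAi, against 1647, 2571 and 2613 on control RNAi. The groups did not overlap, and the log2 difference was -0.99, adjusted p 0.191 without and 0.00890 with the block. The gene met-1 ranged more widely, with 1900.4, 517 and 3686 normalized reads on sqd-1 RNAi, against 3069, 1498 and 4694 on control RNAi. Replicate 3 was high and replicate 2 low in both groups, and the log2 difference of -0.86 had adjusted p 0.517 without and 0.0317 with the block. For mrg-1 the order of replicates was different, with 1003, 2897 and 1781 normalized reads on sqd-1 RNAi, against 2096, 5283 and 2841.5 on control RNAi. Replicate 2 was the highest in both groups, and the log2 difference of -0.87 had adjusted p 0.330 without and 0.00784 with the block.

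Among the H3K9 genes in adr-2(-), set-25 had 322, 335 and 453 normalized reads on sqd-1 RNAi, against 609, 844 and 698 on control RNAi. The groups lay apart, and the log2 difference was -0.96, adjusted p 0.137 without and 0.0105 with the block. The gene hpl-2 had 465, 879.5 and 805 normalized reads on sqd-1 RNAi, against 986, 1169 and 1505 on control RNAi. Its groups were also separate, with a log2 difference of -0.80, adjusted p 0.238 without and 0.0140 with the block. The widest spread was that of met-2, with 1438, 191 and 2759 normalized reads on sqd-1 RNAi, against 2691, 408 and 3806 on control RNAi. Its log2 difference of -0.82 had a 95% interval of -3.62 to 1.98 without the block and -1.21 to -0.43 with it. The H3K4 gene set-2 had 2191, 524 and 2926 normalized reads on sqd-1 RNAi, against 2130.1, 1502 and 2813 on control RNAi. The replicate 2 pair was lower and the other pairs differed by at most 0.06, and the log2 difference of -0.47 had an adjusted p of 0.283 with the block.

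Within replicate pairs, 28 of 30 changes in adr-2(-) and 30 of 30 in wild-type were below 0. The 2 above 0 were set-2 in adr-2(-) pairs 1 and 3, at 0.04 and 0.06. These counts take every gene in each of 3 pairs per genotype, so the changes share libraries and are not independent. Of all genes tested, 51.2% in adr-2(-) and 48.5% in wild-type had a log2 difference below 0. That share was taken between groups and not pair by pair. Groups did not overlap for 4 genes in adr-2(-) (mes-6, mes-4, set-25 and hpl-2), against 14.4% of all genes lower in this way. Without both replicate 2 libraries, a setting chosen after seeing the data, this held for 5 genes with mrg-1 added, against 32.7% of all genes. In that setting the block called the same 8 genes lower, against 26% of all genes, and the log2 difference of set-2 was 0.05 in place of -0.47. One fit of all 12 libraries without the block called 4 genes, mes-6, mes-4, set-25 and hpl-2, against 11% of all genes lower.

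The same marker lists moved in adr-2(-). With the block, 14 of 17 germ cell markers were lower, with a median log2 difference of -0.83. By the same fit 14 of 14 oocyte markers were lower, with a median of -1.28. It called 15 of 17 sperm markers higher, with a median of 2.39. Among all genes tested, it called 28.5% lower and 17.1% higher. The summed germ cell marker level ranged from 31567 to 48085 normalized reads on sqd-1 RNAi and from 57935 to 91368 on control RNAi in adr-2(-). The summed oocyte level ranged from 46999 to 149967 on sqd-1 RNAi and from 155923 to 335016 on control RNAi, and the summed sperm level from 10256 to 15467 on sqd-1 RNAi and from 1966 to 4029.5 on control RNAi. With the block and without both libraries of replicate 2, 13 of 17 germ cell and 14 of 14 oocyte markers were lower and 16 of 17 sperm markers higher, against 26% of all genes lower and 13.8% higher. Their part in the lower levels of the chromatin genes was not tested.

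In the adr-2(-) libraries of replicate 2 the 10 genes spanned log2 deviations 4.49 wide on sqd-1 RNAi and 4.08 wide on control RNAi, against 1.99 to 2.33 in those of replicates 1 and 3. All genes also spread in replicate 2, with 5th to 95th percentiles of -2.53 to 1.44 on sqd-1 RNAi and -2.08 to 1.39 on control RNAi. In replicate 1 they were -0.94 to 1.69 and -0.88 to 1.64, and in replicate 3 -1.51 to 1.48 and -1.61 to 1.18, in the same order. On common size factors, met-2 had 1528, 191 and 2713 normalized reads in the adr-2(-) sqd-1 RNAi libraries of replicates 1, 2 and 3, and 2718, 430.2 and 4013 in the adr-2(-) control libraries. The log2 deviation of replicate 2 from replicates 1 and 3 was -3.40 on sqd-1 RNAi and -2.94 on control RNAi, at the percentiles 2.64 and 2.56 of all genes. The deviation was -2.40 on sqd-1 RNAi and -1.45 on control RNAi for mes-3. It was -2.38 and -1.31 for met-1, and -2.30 and -0.68 for set-2, in the same order of treatments. The percentiles of all genes were 6.5 and 10.2 for mes-3, 6.6 and 11.8 for met-1, and 7.05 and 22.4 for set-2. In the opposite direction mrg-1 was higher in replicate 2, by 1.08 on sqd-1 RNAi and 1.14 on control RNAi, at the percentiles 89.8 and 92.2. The other 5 genes deviated by between -0.44 and 0.49 in these libraries, and in wild-type the replicate 2 deviations of all 10 genes lay between 0.13 and 0.52.

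The exonic lengths of the low genes were 4131 bases for met-2, 3126 for mes-3, 5623 for met-1 and 5475 for set-2, and the high gene mrg-1 has 1505. Over 13652 protein-coding genes, the replicate 2 deviation in adr-2(-) had a Spearman correlation with length across genes of -0.343 on sqd-1 RNAi and -0.191 on control RNAi. In the wild-type libraries of replicate 2 it was 0.173 on sqd-1 RNAi and 0.282 on control RNAi. Over the other 8 libraries, those of replicates 1 and 3, it lay between -0.388 and 0.268, so a correlation of this size was also seen elsewhere. These genes share libraries and are not independent. Genes of 5000 bases and over had a median deviation of -1.09 on sqd-1 RNAi and -0.43 on control RNAi, and genes under 1000 bases 0.47 and 0.30. Length did not order the 10 genes fully: mes-4, with 3121 bases, deviated by -0.34 and 0.34, while mes-3, with nearly the same length, deviated by -2.40 and -1.45. The part of length in the values of the 10 genes was not tested.

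**Figure D3:**
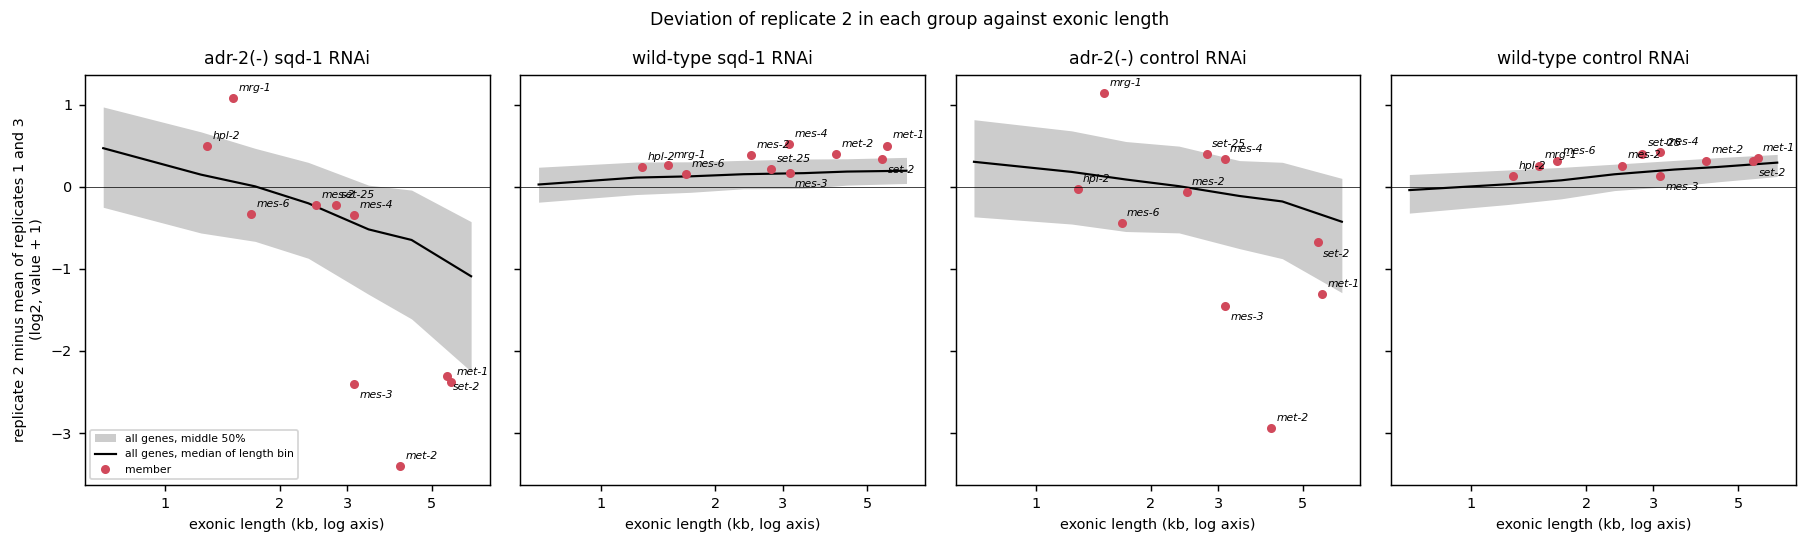
Deviation of replicate 2 from the mean of replicates 1 and 3 (log2, value + 1) against exonic length in kilobases (log axis) in the 4 groups, with the 10 genes as points and the median and middle 50% of all genes by length bin as line and band. In both adr-2(-) groups met-2, mes-3 and met-1 lie below the band and mrg-1 above it, and set-2 lies below it on sqd-1 RNAi only. In wild-type all 10 lie between 0.13 and 0.52.

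The interaction of genotype and RNAi was fitted over all 12 libraries, as the change in adr-2(-) minus the change in wild-type. It was above 0 for 9 of the 10 genes, with a median of 0.33. Among all genes 44.3% were below 0 and the median was 0.05. Limma, edgeR and DESeq2 each called 0 of the 10 and 0% of all genes. The largest value was that of set-25, 0.81 ± 0.306 (SE), with a 95% interval of 0.14 to 1.48. Before adjustment set-25 alone of the 10 passed 0.05 without the block, against 1.44% of all genes, and set-25, mrg-1 and hpl-2 passed it with the replicate block, against 9.95% of all genes. The limma adjusted p of set-25 was 0.9998 without and 0.197 with the block, and with the block it was 0.252 for mrg-1 and 0.409 for hpl-2. Its pair changes were -0.92, -1.33 and -0.62 in adr-2(-), against -1.69, -1.97 and -1.86 in wild-type, and no pair crossed between genotypes. The same separation held for 5 genes in all, set-25, hpl-2, mrg-1, mes-2 and met-2, against 15.3% of all genes. Without the adr-2(-) pair of replicate 2, a count chosen after seeing the data, it held for 9 genes, mes-6 being the exception, against 24.5% of all genes. For hpl-2 the pair changes were -1.08, -0.41 and -0.90 in adr-2(-), against -1.37, -1.29 and -1.39 in wild-type. For mrg-1 they were -1.06, -0.87 and -0.67 in adr-2(-), against -1.30, -1.38 and -1.44 in wild-type. The interaction of set-2 was the 1 below 0, at -0.29 ± 0.739 (SE), and without both adr-2(-) libraries of replicate 2 it was 0.25 and all 10 were above 0. The 95% interval of met-2 ran from -2.56 to 3.25 without the block and from -0.07 to 0.76 with it. For 51 genes tested in the 6 further chromatin lists described below, the median interaction was 0.31, and list medians lay between 0.22 and 0.55. The median was 0.15 for germ cell markers, with 6 of 17 below 0, and 1.49 for oocyte markers, with 0 of 14 below 0. The part of these markers in the values of the 10 genes was not tested.

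Loss of adr-2 on control RNAi separated none of the 10 genes from wild-type. Limma, edgeR and DESeq2 each called 0 of the 10, against 0.00737%, 0.00737% and 0.00446% of all genes, and 0 of the 10 had an unadjusted p under 0.05 in limma, against 7.43% of all genes. The log2 differences, adr-2(-) minus wild-type, ran from -0.66 (met-2) to 0.57 (mrg-1), with a median of 0.19, against -0.04 for all genes tested, and every gene's groups overlapped, against 5.07% of all genes wholly higher and 8.81% wholly lower. The H3K36 reader gene mrg-1 had 2046.5, 4970.1 and 2688 normalized reads in adr-2(-), against 1763, 2246 and 2118.5 in wild-type. Its replicate 2 was highest in both genotypes, and the 95% interval of -0.20 to 1.34 includes a rise of more than 2-fold as well as no difference. The gene set-25 had 595, 794 and 660.2 normalized reads in adr-2(-), against 549, 679.8 and 508 in wild-type, a log2 difference of 0.24 ± 0.208 (SE). The gene mes-6 had 696.5, 538 and 833 normalized reads in adr-2(-), against 622, 691 and 525 in wild-type, a log2 difference of 0.16 ± 0.228 (SE). Both 95% intervals included 0. Without the adr-2(-) library of replicate 2 all 10 differences were above 0, between 0.070 and 0.34, and mes-6 alone had separate groups, against 9.8% of all genes higher. With all libraries, 16 of 17 sperm markers were below 0, with a median of -1.11, and 10 were wholly lower, against 8.81% of all genes. Below 0 were 0 of 14 oocyte markers (median 0.62), 2 of 17 germ cell markers (median 0.26) and 53.0% of all genes. Limma called 0 of these markers. Their part in the values of the 10 genes was not tested.

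On sqd-1 RNAi, adr-2(-) animals had higher mean log2 values than wild-type for 7 of the 10 genes, with a median log2 difference of 0.54, against -0.07 for all genes tested. Limma called 0 of the 10 and 0% of 14697 genes, and 4 of the 10 passed 0.05 before adjustment, against 12.1% of all genes. EdgeR called 0 of the 10 and 0% of all genes, and DESeq2 on recovered whole reads called 1, set-25, against 1.84% of all genes called higher. The H3K9 methyltransferase gene set-25 had 373, 373 and 488 normalized reads in adr-2(-), against 200.5, 206 and 166 in wild-type. No library crossed, and the mean in adr-2(-) was 216% of that in wild-type. In limma the log2 difference was 1.098 ± 0.232 (SE), adjusted p 0.388, and it was 1.11 with an adjusted p of 0.0245 in the authors' deposited table and in DESeq2. The authors' values also came from DESeq2 on the same reads, so their match is not separate evidence. Over the other settings the adjusted p of set-25 lay between 0.0925 and 0.772.

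Other genes with separate groups on sqd-1 RNAi were mrg-1, hpl-2, mes-4, mes-2 and mes-6. For mrg-1 the values were 1160.3, 3223 and 1921 normalized reads in adr-2(-), against 843, 1034 and 929.8 in wild-type, a log2 difference of 1.05 ± 0.378 (SE). For hpl-2 they were 538, 979 and 869 in adr-2(-), against 396, 475 and 434 in wild-type, a log2 difference of 0.83 ± 0.280 (SE). For mes-4 they were 1044, 1080 and 1731 in adr-2(-), against 638, 918 and 681 in wild-type, a log2 difference of 0.76 ± 0.285 (SE). Each of these adr-2(-) libraries lay above each wild-type library, and the limma adjusted p was 0.389, 0.388 and 0.398 in that order of genes. In all, 6 of the 10 genes had adr-2(-) groups wholly above wild-type, against 14.5% of all genes. The 4 whose groups overlapped, mes-3, met-1, met-2 and set-2, were those with a low adr-2(-) replicate 2. Without that library, a count chosen after seeing the data, all 10 genes had separate groups, against 22.1% of all genes, and the log2 differences lay between 0.48 and 1.16, yet limma called 0.

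Beside these values, all 14 oocyte markers had every adr-2(-) library above every wild-type library on sqd-1 RNAi, with a median log2 difference of 2.17, while limma called 0 of them. Their summed level ranged from 46999 to 149967 normalized reads in adr-2(-) on sqd-1 RNAi and from 12243 to 32738 in wild-type on sqd-1 RNAi. Of 16 germ cell markers tested, 6 were separate in this way, with a median of 0.38, against 14.5% of all genes. Without the adr-2(-) library of replicate 2 the counts were 14 of 14 oocyte and 8 of 16 germ cell markers, against 22.1%. For 51 genes tested in the 6 further chromatin lists described below, the median was 0.64 with all libraries. Groups were then separate for 6 of 9 H3K4, 6 of 9 H3K9 and 5 of 11 demethylase genes, against 14.5%. The counts were 8 of 10 for DREAM, 4 of 6 for NuRD and 3 of 6 for SIN3 and MYST. Without the adr-2(-) library of replicate 2, 41 of the 51 were separate, against 22.1%. Of 17 sperm markers 15 were below 0 in this comparison, with a median of -0.67, against 54.65% of all genes below 0, and limma called 0 of them. The part of the oocyte, germ cell and sperm markers in the levels of the 10 genes was not tested.

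The last comparison set adr-2(-) animals on sqd-1 RNAi against wild-type animals on control RNAi, which differ in both genotype and RNAi. All 10 genes had lower means on the log2 scale, with a median of -0.66, against -0.09 for all genes tested. Limma, edgeR and DESeq2 each called 0 of the 10. Of all genes, limma called 0.0422% in either direction, edgeR 0.0634% lower and DESeq2 0.468% lower, and 2 of the 10 passed 0.05 in limma before adjustment, against 15.9% of all genes. Groups were separate for mes-6, set-25 and hpl-2, against 13.7% of all genes lower in this way, and for mrg-1 as well without the adr-2(-) library of replicate 2, against 26.7%. The gene mes-6 had 307, 312 and 479 normalized reads in adr-2(-) on sqd-1 RNAi, against 665, 743 and 553 in wild-type on control RNAi, a log2 difference of -0.86 ± 0.263 (SE). The gene set-25 had 340.4, 346 and 457 normalized reads in adr-2(-) on sqd-1 RNAi, against 587, 731 and 535 in wild-type on control RNAi, a log2 difference of -0.70 ± 0.237 (SE). In both genes the adr-2(-) replicates 1 and 2 lay close together and replicate 3 was nearer to the controls. This comparison shares its libraries with those above, so its values are not separate evidence.

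Most genes of 6 further chromatin lists, 52 genes in all, were also lower in wild-type. Of 51 that could be tested, 45 were lower on sqd-1 RNAi and 4 higher, with a median log2 difference of -1.16, against 33.8% and 27.3% of all genes. In adr-2(-) limma called 0 of 51, and with the replicate block 40 were lower and 3 higher, with a median of -0.83, against 28.5% and 17.1% of all genes. Without both libraries of replicate 2 the block called 34 lower and 1 higher, against 26% and 13.8% of all genes. In the H3K4 methylation complexes, the partners of SET-2 and related enzymes, 8 of 9 were lower and 1 higher, with a median of -1.13 in wild-type. The shared core subunit gene wdr-5.1 had 369.6 ± 64.1 normalized reads on sqd-1 RNAi and 1129.8 ± 194 on control RNAi (SD, n = 3), a log2 difference of -1.61 ± 0.185 (SE), whereas set-2 itself had -0.25. The gene hcf-1, for a host cell factor homolog, had 1508 ± 361 normalized reads on sqd-1 RNAi and 4232.5 ± 534 on control RNAi (SD, n = 3). The 1 higher was set-30, at 0.65, a gene picked out with its value known.

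Among 9 partners of H3K9 methylation and heterochromatin, 8 were lower and 0 higher, with a median log2 difference of -1.07. The shares of all genes were 33.8% lower and 27.3% higher. The gene arle-14, whose product works with MET-2, had 167 ± 11.4 normalized reads on sqd-1 RNAi and 441 ± 49.7 on control RNAi (SD, n = 3). The gene cec-3, for a chromodomain protein that binds methylated H3K9, had 472 ± 27.5 normalized reads on sqd-1 RNAi and 1341 ± 220.2 on control RNAi (SD, n = 3). Both had separate groups, with log2 differences of -1.39 and -1.49. The 1 that did not pass was hpl-1, the other HP1 relative, at -0.27 ± 0.308 (SE) and 41.6 normalized reads on sqd-1 RNAi and 51.2 on control RNAi.

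Histone demethylase genes were divided. Of 11 tested, 8 were lower and 3 higher, with a median of -0.90, against 33.8% and 27.3% of all genes. The gene lsd-1, for an LSD1-type demethylase, had 42.024 ± 12.5 normalized reads on sqd-1 RNAi and 219.6 ± 43.5 on control RNAi (SD, n = 3), a log2 difference of -2.39. In the opposite direction jmjd-1.1, for a JmjC-domain protein, had 344 ± 43.5 normalized reads on sqd-1 RNAi and 102 ± 20.2 on control RNAi (SD, n = 3), a log2 difference of 1.76. The others that rose were jmjd-3.1 at 0.73 and jmjd-3.3 at 2.15, picked out with their values known.

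In the DREAM and synMuv B list, which holds repressors of germline genes in somatic cells, 10 of 10 were lower, with a median of -1.63, the lowest of the 6 lists. The gene dpl-1, for the DP partner of E2F, had 442 ± 139.7 normalized reads on sqd-1 RNAi and 1704 ± 244 on control RNAi (SD, n = 3). The gene lin-54, for a DNA-binding subunit, had 301 ± 64.5 normalized reads on sqd-1 RNAi and 1102 ± 163 on control RNAi (SD, n = 3). Their log2 differences were -1.98 ± 0.210 and -1.88 ± 0.189 (SE). The largest decrease of the 10 genes, that of set-25 at -1.84 ± 0.185 (SE), lay within these errors. In the NuRD and MEC list 5 of 6 were lower and 0 higher, with a median of -0.89, led by the histone deacetylase gene hda-1 at -1.60 and rba-1 at -1.49. In the SIN3 and MYST acetyltransferase list 6 of 6 were lower, with a median of -1.22, led by athp-1 at -1.55 and the acetyltransferase gene mys-1 at -1.26. The shares of all genes in this comparison were 33.8% lower and 27.3% higher. These lists were chosen with results of these data known, and their counts are a description.

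Of 8 muscle markers 4 were higher on sqd-1 RNAi in wild-type, with a median of 0.34. They were led by the myosin gene unc-54 at 0.60 and the paramyosin gene unc-15 at 0.59. Among all genes tested, 27.3% were called higher and 33.8% lower. Of 7 intestine markers 1 was higher (ifb-2, 0.52) and 1 lower (erm-1, -0.51), with a median of -0.16, and of 7 neuron markers 3 were higher and 1 lower, with a median of 0.50, with ric-4 at 0.65 and rab-3 at 0.56. Germ cell markers lay between -2.36 and -0.27, and those named by the rule on list genes were gld-1 at -2.36, glp-1 at -2.02, the oocyte genes oma-2 at -3.26 and spn-4 at -3.07, and the sperm genes fer-1 at 2.72 and spe-38 at 2.60.

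**Figure D4:**
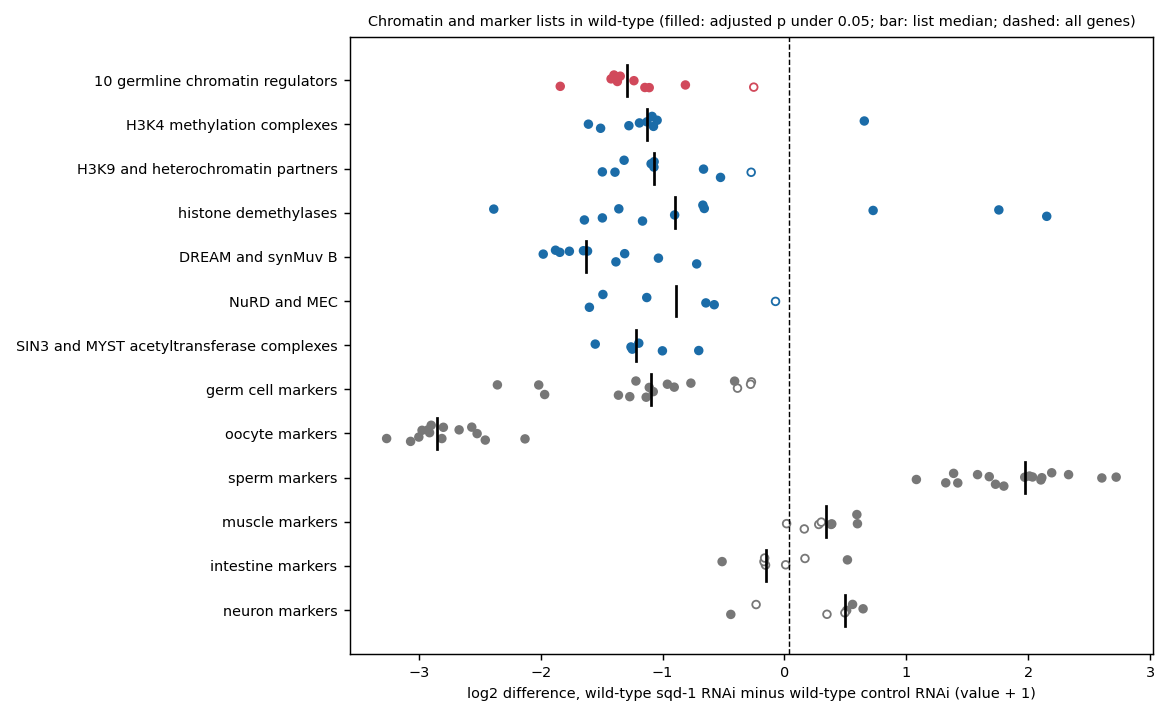
Log2 difference in wild-type, sqd-1 RNAi minus control RNAi (value + 1), for each gene of the 10 and of 12 chromatin and marker lists, with filled points for an adjusted p under 0.05, a bar at each list's median and a dashed line at the median of all genes. The 10 genes and the 6 chromatin lists centre between -1.63 and -0.89, oocyte markers lie lower and sperm markers higher.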

How the data were processed

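Poly-A RNA from whole worms was measured in 12 libraries (KAPA stranded kit, per the labels' protocols). STAR 2.7.10b and DESeq2 are named in the submitters' processing notes; the read counter, its use of strand and the genome build are not given in the sources used here. The authors deposited 5 pairwise tables of 6 libraries each. Per the file headers, each gives the authors' log2 change and its error, a test score, raw and adjusted p-values, and 1 normalized signal per library, namely reads over a size factor.

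Whole reads were recovered by dividing each library's values by the worth of 1 read: of 667263 values checked, 100% were whole reads within 0.05, and 0 differed between tables. Gene names, positions and exonic lengths came from the Ensembl annotation of WBcel235 by gene ID (24602 IDs matched). Each comparison was fitted within its own table with limma (3.58.1, R 4.3.3, eBayes with trend) on log2(value + 1), keeping genes whose mean reached 10, with Benjamini-Hochberg adjustment over all genes; this scale shrinks the changes of low genes. The interaction and the levels per kilobase used median-of-ratios factors over 12 libraries. The limma fit without the replicate block was tested on simulated data. The simulation gave every gene the same dispersion and held no replicate pairs or outlying library, so it does not cover the block or the spread in adr-2(-).

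Deviations of same-numbered libraries from group means correlated at 0.245 to 0.271 within wild-type and 0.637 to 0.822 within adr-2(-), but at -0.523 to 0.209 between genotypes, so numbers were taken to pair libraries within a genotype. The alternatives were pseudocounts of 0.1 and 10, no filter on low values or a minimum mean of 50, scaling by TMM or the upper quartile, no trend, the replicate block, edgeR (4.0.16) and DESeq2 (1.42.0) on whole reads, 1 fit of 12 libraries and leaving out each library. Leaving out both adr-2(-) libraries of replicate 2, for the fits, the lists and the pair changes, was added after seeing the data. The 10 genes, the lists and the tests were chosen with earlier results of these data known. All 10 genes are named; of each list, up to 2 called genes with the largest difference, separate groups and a higher mean reaching 100 are named.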

Additional observations from a re-analysis of the deposited data

How the results depend on the processing

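In wild-type the call of 9 genes held under every alternative but 1 fit of all 12 libraries, which called 6, and leaving out any 1 library gave 9 to 9. In adr-2(-) on sqd-1 RNAi the count of genes called was 0 and became 8 with the replicate block, 4 in 1 fit of all 12 libraries and 8 with the block without both libraries of replicate 2; leaving out 1 library gave 0 to 0, as it did in the other 4 comparisons. For adr-2 loss on sqd-1 RNAi DESeq2 called 1 gene and the other settings 0. The replicate block changed no other call of the 10 genes. Counts over all genes were 8849 in wild-type and 4964 in 1 fit of 12 libraries. In adr-2(-) the count was 4, and 403 with a pseudocount of 10, 6411 with the block, 1408 in DESeq2, 3176 in 1 fit of 12 libraries, 0 without both libraries of replicate 2 and 5605 with the block and without them, and leaving out 1 library gave 0 to 2. For adr-2 loss on sqd-1 RNAi the count of 0 became 266 in DESeq2 and 1 with a pseudocount of 10 or in 1 fit of 12 libraries, and leaving out 1 library gave 0 to 1. For both changes the count of 6 became 0 with the block, 194 in edgeR, 830 in DESeq2, 248 in 1 fit of 12 libraries and 1847 without the adr-2(-) sqd-1 RNAi library of replicate 2; leaving out any other library gave 0 to 4.

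Signs turned in these cases, none of them for a gene called without the replicate block (met-2 in adr-2(-) was called with it). In adr-2(-) on sqd-1 RNAi, set-2 was 0.049 without both libraries of replicate 2, with and without the block. For adr-2 loss on control RNAi, set-2 was 0.0058 in DESeq2 and 0.028 in 1 fit of 12 libraries. For adr-2 loss on sqd-1 RNAi, mes-3 was 0.064 in edgeR and 0.12 in DESeq2, met-2 was 0.34 and 0.39, and set-2 was 0.028 in DESeq2. The interaction of set-2 was 0.25 without both libraries of replicate 2. Leaving out 1 library turned the sign of these log2 differences, given as ranges. In adr-2(-) on sqd-1 RNAi they were -1.11 to 0.20 for mes-3, -1.81 to 0.30 for met-2 and -0.96 to 0.28 for set-2. For adr-2 loss on control RNAi they were -0.82 to 0.070 for mes-3, -0.55 to 0.28 for met-1, -1.28 to 0.34 for met-2 and -0.25 to 0.21 for set-2. For adr-2 loss on sqd-1 RNAi they were -0.73 to 0.56 for mes-3, -0.52 to 0.87 for met-1, -1.04 to 0.86 for met-2 and -0.74 to 0.48 for set-2. For both changes they were -0.65 to 0.099 for mrg-1 and -0.95 to 0.27 for set-2, and for the interaction -0.35 to 0.95 for mes-3, -0.39 to 1.01 for met-1, -0.64 to 1.48 for met-2 and -0.75 to 0.47 for set-2. The cause of these changes was not tested. The lowest count of any of the 10 genes in a library was 179 reads, and what depth limits was not tested.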

Other observations

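Of 9227 other protein-coding genes with a mean of at least 100 normalized reads over the 12 libraries, the 5 whose log2 profile was most like the mean profile of the 10 genes were vps-35, bet-1, F33H1.4, tftc-3 and swsn-7, with Pearson correlations over 12 libraries of 0.995, 0.995, 0.993, 0.993 and 0.993. All these profiles share libraries, size factors and depth, so the values describe likeness in these libraries. The retromer subunit gene vps-35 averaged 1524 normalized reads in adr-2(-) on sqd-1 RNAi, 1111 in wild-type on sqd-1 RNAi, 2766 in adr-2(-) on control RNAi and 2467 in wild-type on control RNAi. The bromodomain protein gene bet-1 averaged 1437, 1111, 2317 and 2028 in the same order of groups. Among the 10 genes, the correlation with their own mean profile was highest for mes-6 (0.962) and mes-2 (0.944) and lowest for mrg-1 (0.614) and set-2 (0.623).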
